A study of Mus musculus with 16 samples.

Results

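The genes of MHC class I antigen presentation were examined in nuclear RNA-seq of mouse embryonic stem cells (ESCs) that lacked Polycomb group proteins. The group has 10 listed genes, which are B2m, H2-K1, H2-D1, Tap1, Tap2, Tapbp, Psmb8, Psmb9, Psmb10 and Nlrc5. They were matched by RefSeq identifier to gene symbols, with the entry of the highest mean kept for each symbol. Values were found for 8 of the 10 genes among 19338 genes with a symbol, and the levels of H2-K1 and H2-D1 are not analysed here, so that only their promoters are described. The group was chosen by measured values of these same libraries, namely the level of B2m in the Eed-/- cells in the authors' comparisons. Those comparison values are not used, so no difference between genotypes is given or tested.

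All 4 groups of cells lacked RING1A and had 4 libraries each, 16 in all, made from RNA of isolated nuclei. Ring1a-/-;Ring1bfl/fl cells, untreated, served as the reference with RING1B present. The same line given 800 nM 4-hydroxytamoxifen for 72 h lost RING1B and with it Polycomb repressive complex 1 (PRC1). Eed-/-;Ring1a-/-;Ring1bfl/fl cells, untreated, lacked EED and with it the function of PRC2, and the same cells after 800 nM 4-hydroxytamoxifen for 72 h lacked both complexes. The Eed-/- cells carry a single clone label, B4, so that the deletion and the clone cannot be told apart. The cells grew without feeders on gelatin. With no values per group, the loss of RING1B and EED was not checked here. The 3 deposited tables hold 1 level for each of 20633 entries, which is the authors' mean of the normalized read count. This mean was identical in the 3 tables, although each compares a different pair of groups. No libraries are named for this mean, and from its identity it is taken here as the mean over all 16. It carries no spread and no value per library, so neighbours in any order of levels below could not be told apart by a test, and fewer cells expressing a gene and less RNA per cell cannot be told apart either.

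MHC class I molecules display short peptides from inside the cell to T cells and natural killer cells. The proteasome cuts proteins into peptides, the TAP transporter carries them into the endoplasmic reticulum (ER), and a loading complex places them on a heavy chain that is held together with beta-2-microglobulin. Interferons raise many genes of this pathway in most tissues, and ESCs are known for little class I protein on their surface.

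Before the levels, the promoter of B2m is shown because it was the only window of the group that held both an interferon-type and an NF-kB-type motif. RefSeq windows on the GRCm38.p6 assembly (the assembly of mm10) were used, running from 250 bases before the start of a gene to 50 after it. The search covered both strands for GAAANNGAA, the core of the interferon-stimulated response element, and for GGGANTTTC, the greater part of an NF-kB site. It also covered CCAAT of the CCAAT box, GGGCGG of the GC box and TATAAA of the TATA box. Matches stand in capitals and all other bases in lower case. The promoter of Psmb10 is shown beside it as the one with the fewest CpG dinucleotides and no match to any of the motifs. Both stretches end before the first annotated exon and are written 5′ to 3′ on the strand of the gene.
B2m, chr2:122147437-122147685, plus strand: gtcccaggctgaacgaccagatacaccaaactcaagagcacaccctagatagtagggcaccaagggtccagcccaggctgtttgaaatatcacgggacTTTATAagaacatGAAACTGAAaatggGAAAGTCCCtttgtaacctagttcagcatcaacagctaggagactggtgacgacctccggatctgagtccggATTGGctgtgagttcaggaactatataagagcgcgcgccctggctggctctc
Psmb10, chr8:105938445-105938642, minus strand: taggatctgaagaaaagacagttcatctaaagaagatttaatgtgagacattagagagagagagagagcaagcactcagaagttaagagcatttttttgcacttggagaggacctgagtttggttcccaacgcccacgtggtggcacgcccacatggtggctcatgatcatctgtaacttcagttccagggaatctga

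In the B2m stretch the match to GAAANNGAA began at base 112 of 249, and the match to GGGANTTTC, on the opposite strand, began at base 126. A match to TATAAA on the opposite strand began at base 99, and a match to CCAAT on the opposite strand at base 198. From their first base to the end of the stretch there were 151 and 52 bases. Whether the TATAAA match acts as a TATA box was not tested. None of these matches overlapped another. GAAANNGAA occurred in 8.56% of the 32851 promoter windows of 300 bases, and GGGANTTTC in 1.11% of them. Each of these 2 motifs was found in 1 of the 9 windows of the group, that of B2m in both cases. The 9 windows covered 8 of the genes, with a pair of windows for H2-K1 and no window for Tap2 and Nlrc5. CCAAT stood in 7 of the 9 windows against 37.4% of all windows, TATAAA in 5 against 13.6%, and GGGCGG in 3 against 35.7%. The 9 windows are not separate sequences, since those of Psmb9 and Tap1 share 275 of 300 bases and those of H2-K1 share 286. Over the 7 separate stretches CCAAT stood in 5, TATAAA in 4 and GGGCGG in 2. These matches describe letters only and say nothing of whether a factor was bound.

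The windows of the group held more CpG dinucleotides than most windows, apart from that of Psmb10. They were placed by RefSeq starts, and by GENCODE some lie within exons. For Psmb9, Tap1 and Psmb8 all 250 bases before the start lay in exons of protein-coding genes. For Tapbp the longest run outside such exons was 6 bases. The motif and CpG counts of these windows are therefore not counts of sequence outside genes. CpG-rich promoters are the usual sites of Polycomb complexes in ESCs, but in the paper most CpG island promoters were free of them. The median over all windows was 7 CpG dinucleotides, and 8 of the 9 windows of the group lay above it, or 6 of the 7 separate stretches. These 8 windows held more CpG dinucleotides than 58.6% to 71.9% of all windows. H2-D1 had 19, Psmb9 17, Tap1 15 and B2m 14, while Tapbp and Psmb8 had 11 each. The H2-K1 windows had 14 and 15. Psmb10 had 3, with a GC content of 45.7% against a median of 52.7% over all windows. Whether Polycomb proteins occupied these promoters was not measured here.

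The peptide receptor was represented by B2m (NM_009735), the invariant light chain of class I molecules. Its mean normalized count over all libraries was 568, which is higher than that of 67.3% of the 19338 genes. Its spliced transcript is 860 nt long with 4 exons, and it had a level of 661 per kb of spliced transcript, the highest of the 8 genes. Per kb of the genomic span of 5398 nt (chr2:122147686-122153083, plus strand) its level was 105, again the highest of the 8. Whether reads in introns were counted in these nuclear libraries is not given in the sources used here. Which length is the fitting one is therefore unknown, here and for every level per kb below. Taken over all libraries, the mean of B2m includes the Eed-/- libraries, whose B2m level was used to choose the group. The place of B2m among the 8 genes is therefore a description and rests in part on that choice. The whole span of B2m lies within the gene Patl2 on the opposite strand, and Patl2 had a mean normalized count of 83.4. The libraries were made with a directional kit that keeps the strand, but whether the counting used it is not given in the sources used here, so part of either value may come from the other gene, and this was not tested. The mean of B2m was 6.82 times that of Patl2.

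**Figure D1:**
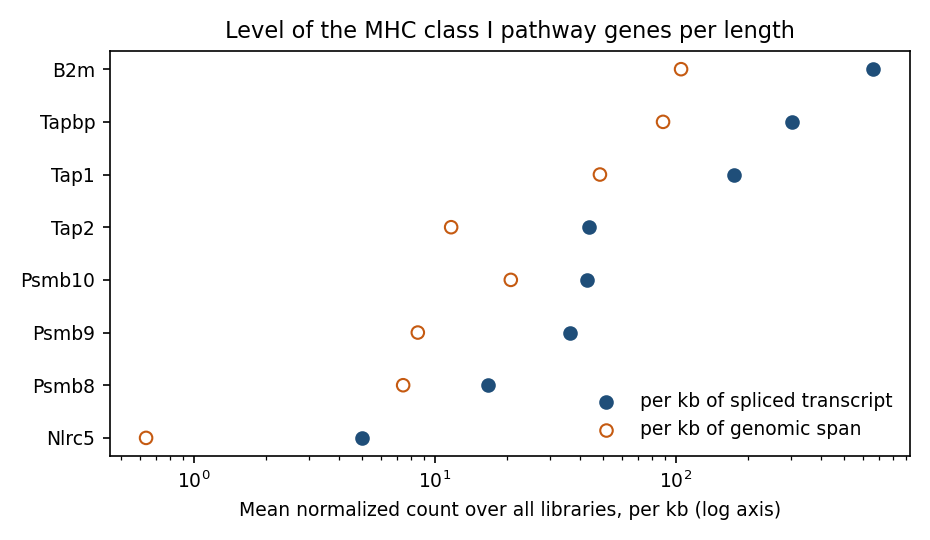
The mean normalized count over all libraries is plotted on a log axis per kb of spliced transcript (filled points) and per kb of genomic span (open points) for the 8 genes found. B2m is highest on both scales at 661 and 105 and Nlrc5 lowest at 4.99 and 0.635, and only Tap2 and Psmb10 change places between the scales.

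The genes for peptide transport and loading followed B2m per kb of spliced transcript, with Tap2 close to Psmb10 on that scale and below it per kb of genomic span. Tapbp (NM_001025313) encodes tapasin, which bridges the transporter and the empty class I molecule. It had the highest mean normalized count of the group, 883, ahead of B2m, above 75.1% of all genes, and 305 per kb of spliced transcript. Tap1 (NM_001161730) and Tap2 (NM_011530) encode the subunits of the peptide transporter TAP, which work as a heterodimer. Their mean normalized counts were 457 and 150, and their levels per kb of spliced transcript were 175 and 43.5. Tap1 was thus 4.01 times Tap2 per kb of spliced transcript and 4.14 times per kb of genomic span. These ratios had to be close, since the lengths of Tap1 and Tap2 stand in a similar proportion on both scales. They are 2614 and 3442 nt spliced, and 9418 and 12795 nt of span. Tap2 shares 3148 nt with the noncoding gene Gm15821 and 1923 nt with Gm20496, and Tapbp shares 1154 nt with Gm19412, each on the opposite strand.

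The immunoproteasome subunits had mean normalized counts below the median of all genes, but the place of Psmb10 turned with the scale. Psmb8, Psmb9 and Psmb10 encode catalytic subunits that replace Psmb5, Psmb6 and Psmb7 in the proteasome of immune and interferon-treated cells. Their mean normalized counts were 27.1 for Psmb8 (NM_010724), 49.2 for Psmb9 (NM_013585) and 56.0 for Psmb10 (NM_013640), which are above those of 31.6%, 36.0% and 37.0% of all genes. Per kb of genomic span Psmb10 was above 63.3% of the genes with a length, while Psmb8 and Psmb9 were above 45.9% and 47.9%. Per kb of spliced transcript their levels were 16.7, 36.4 and 42.7. The standard subunit Psmb6 had a mean normalized count of 1021 and 1280 per kb of spliced transcript, 35.2 times the level of its counterpart Psmb9. Per kb of genomic span this ratio was 53.0. The standard subunit Psmb7 had a mean normalized count of 3334 and 2874 per kb of spliced transcript, 67.3 times the level of Psmb10, but its gene is long and the ratio was 2.87 per kb of genomic span. Both standard subunits were therefore above their counterparts on either length, and the size of the Psmb7 ratio depended on it. Psmb5, the counterpart of Psmb8, is not analysed here. The whole span of Psmb10 (2706 nt) is shared with the antisense gene Gm16156, and Psmb8 shares 2139 nt with Gm20496 on the opposite strand.

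Nlrc5 (NM_001033207) encodes the transactivator that raises class I genes through their SXY promoter module. It had a mean normalized count of 34.6, above 33.4% of all genes. Its spliced transcript of 6945 nt has 49 exons, and per kb it had 4.99, the lowest of the 8 genes. Over the genomic span of 54510 nt (chr8:94472763-94527272, plus strand) it had 0.635 per kb. The microRNA gene Mir7072 lies within it on the same strand. Between B2m and Nlrc5, with the same limit on B2m, the level differed by 132-fold per kb of spliced transcript and by 166-fold per kb of genomic span.

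Set against all genes, the group spread over the middle of the range of levels. The mean normalized count was 10 or more for all 8 genes, as for 74.9% of all genes. It was 100 or more for 4 of the 8 genes (B2m, Tap1, Tap2 and Tapbp) against 57.6% of all genes, and 1000 or more for 0 of 8 against 22.7%. The median of the 8 genes was 103 against 192 over all genes. Per kb of spliced transcript the median was 43.1 against 76.7 over all genes with a length, but per kb of genomic span it was 16.2 against 9.90, so that the side of the all-gene median on which the group fell depended on the length used. The 8 genes together made up 0.0120% of the summed means of all entries.

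**Figure D2:**
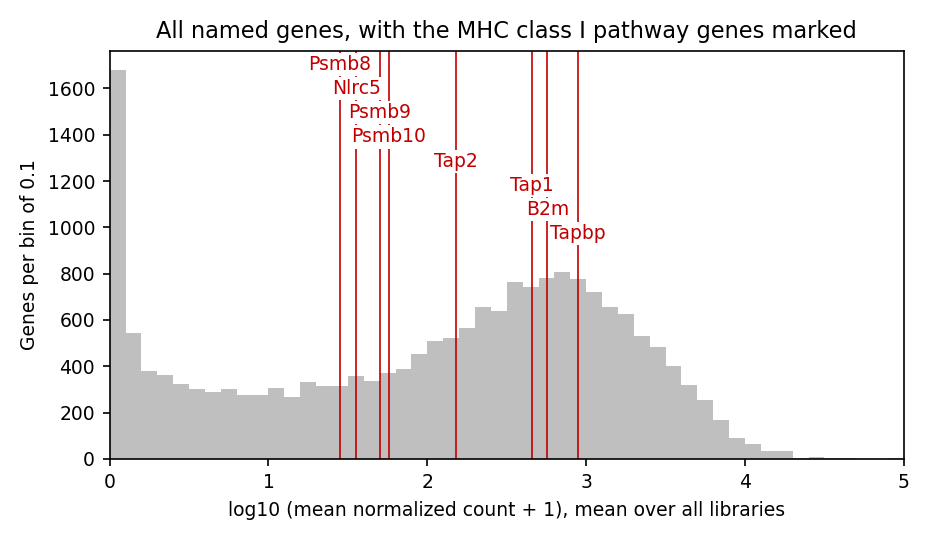
The histogram counts all named genes by log10 of the mean normalized count plus 1 in bins of 0.1, and the red lines mark the 8 genes. Psmb8, Nlrc5, Psmb9 and Psmb10 lie left of the broad upper peak, with means from 27.1 to 56.0, and Tap2, Tap1, B2m and Tapbp lie within it, with means from 150 to 883.

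Of the 8 genes, 5 lie on chromosome 17. Psmb9, Tap1, Psmb8 and Tap2 stand side by side in 34335 nt (chr17:34181987-34216321), and Tapbp lies 252694 nt from them (chr17:33919332-33929292, plus strand). Psmb9 (chr17:34181987-34187764) is on the minus strand, and Tap1 (chr17:34187802-34197219), Psmb8 (chr17:34197790-34201454) and Tap2 (chr17:34203527-34216321) are on the plus strand. These positions are those of GENCODE, by which 37 nt lie between Psmb9 and Tap1. RefSeq places the starts elsewhere, at 34187330 for Psmb9 and at 34187556 for Tap1. These RefSeq starts face away from each other with 225 bases between them. The RefSeq start of Tap1 thus lies within the GENCODE span of Psmb9. On these neighbouring genes, Tap1 was 4.80 times Psmb9 per kb of spliced transcript and 5.69 times per kb of genomic span. By the GENCODE annotation other transcripts of Tap1 and the Psmb9 entry share 212 nt on opposite strands, where the same doubt about strand applies. Psmb10 (chr8:105935739-105938444, minus strand) and Nlrc5 lie on chromosome 8.

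**Figure D3:**
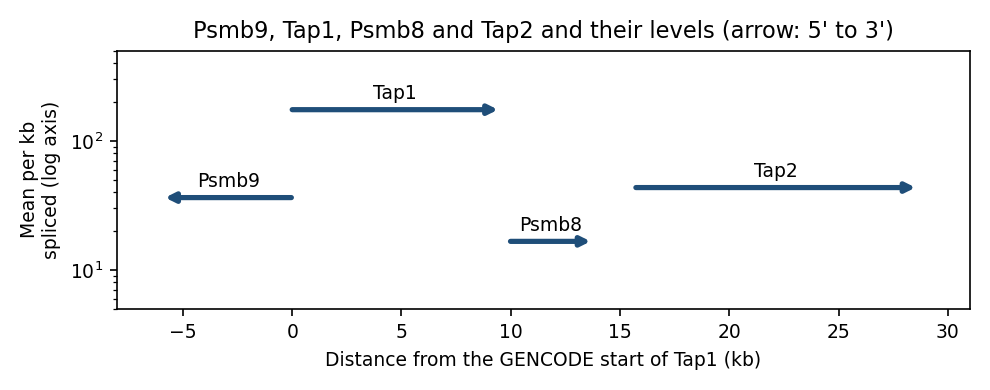
Each arrow spans 1 gene from its 5′ to its 3′ end by distance in kb from the GENCODE start of Tap1, at a height that gives its mean normalized count per kb of spliced transcript on a log axis. Tap1 lies above its neighbours, with 36.4 for Psmb9, 175 for Tap1, 16.7 for Psmb8 and 43.5 for Tap2.

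The rest of the pathway was read from lists of genes with related roles. The highest and lowest genes of a list are named per kb of spliced transcript, here and below. Other genes can take these places per kb of genomic span. The other subunits of the 20S proteasome, the core particle that does the cutting, were found for 10 of 11, and all 10 had means of 100 or more. Their levels per kb of spliced transcript ran from 380 for Psma2 to 2418 for Psmb2, so that each lay above Psmb8, Psmb9 and Psmb10. Per kb of genomic span Psma5 was lowest at 29.3 and Psmb4 highest at 293. All 3 genes of the PA28 activator, a cap that opens the core particle, were found, and 2 had a mean of 100 or more. Psme3, the nuclear form, had 563 per kb of spliced transcript, while Psme1 and Psme2, of the interferon-inducible form, had 252 and 79.6. For ER folding and peptide trimming 6 of 6 genes were found, 5 with a mean of 100 or more. The chaperone Canx had 3811 per kb of spliced transcript and the tapasin-related Tapbpl 15.0.

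Other class I and class I-like genes were found for 4 of 12, each with a mean of 10 or more and none with 100 or more. H2-M3, which presents formylated peptides, had 41.7 per kb of spliced transcript, and Hfe, which acts in iron uptake, had 6.19. A gene was counted as found when an entry matched its symbol, and the missing genes had no such entry. A symbol was given to 20560 of the 20633 entries, and whether a missing gene stands among the rest was not tested. Class I heavy chain genes have near-identical copies, and how the RNA-seq counting treated reads shared between copies is not given in the sources used here. Shared reads bear only on the levels of genes that were found.

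Genes through which interferons and the SXY and NF-kB sites act ranged from below the median of all genes to near the top. By mean normalized count, the RFX complex subunits Rfxap and Rfxank were above 40.7% and 43.3% of all genes and Creb1 above 94.3%. Interferon signalling genes were found for 12 of 12, all with means of 100 or more. They ran from 65.1 per kb of spliced transcript for the receptor chain Ifngr2 to 601 for the kinase Jak1. Per kb of genomic span Irf2 was lowest at 4.80 and Ifnar1 highest at 39.6. SXY and NF-kB factors were found for 8 of 9, 7 with a mean of 100 or more, from 30.2 per kb of spliced transcript for Rfxank to 2842 for Creb1. Nlrc5, at 4.99, was below every gene of both lists on that scale.

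The identity of the cells was checked by markers. ESC markers were found for 9 of 10, all with means of 100 or more, from 463 per kb of spliced transcript for Utf1 to 1851 for Tdgf1. Per kb of genomic span Esrrb was lowest at 35.4 and Sox2 highest at 899. Class II and leukocyte genes, which mark professional antigen-presenting cells, were found for 9 of 10, 6 with a mean of 10 or more and 1 with 100 or more. The highest was H2-DMa at 76.9 per kb of spliced transcript, and the leukocyte marker Ptprc had 0.564. Fibroblast and feeder markers were found for 10 of 10, 6 with a mean of 10 or more and 4 with 100 or more, from 0.116 per kb for Lum to 2816 for Fn1, which ESCs also express. Besides Fn1, those with 100 or more were Vim, Pdgfrb and Thy1, with mean normalized counts of 306, 162 and 128. These levels cover all groups together, and which cells they come from in each group was not tested.

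**Figure D4:**
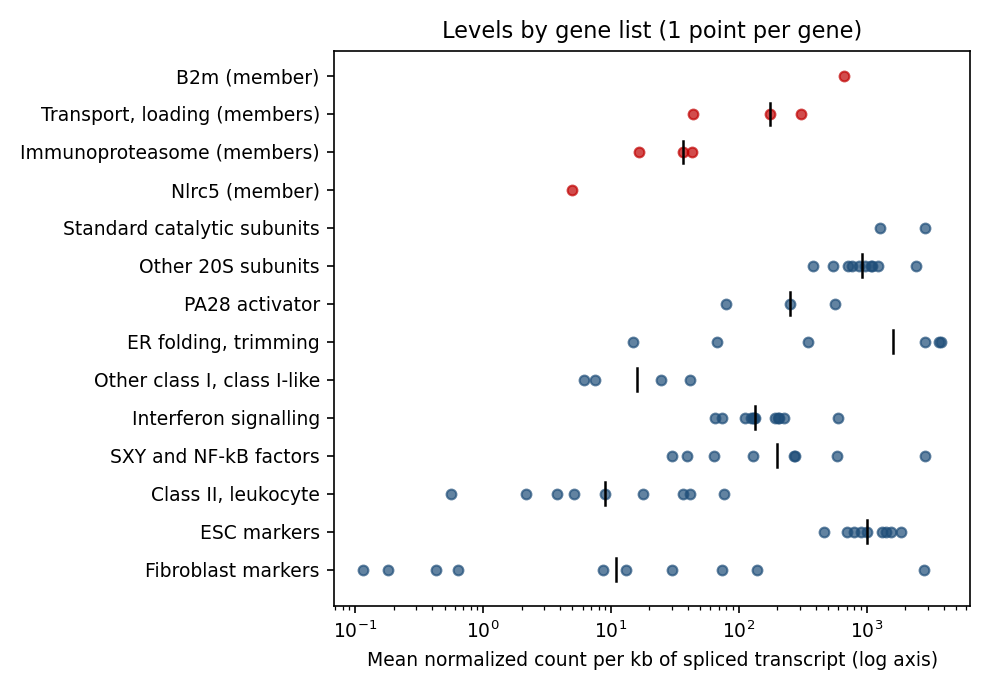
Each point is 1 gene by its mean normalized count per kb of spliced transcript on a log axis, grouped by list, with the members of the MHC class I group in red, and a black line marks the median of lists of 3 or more genes found. The immunoproteasome genes run from 16.7 to 42.7, left of the standard subunits at 1280 and 2874, and Nlrc5 at 4.99 lies left of every interferon signalling gene.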

How the data were processed

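Nuclear RNA of ESCs was sequenced in 16 libraries, in 4 groups of 4. After rRNA reads had been taken out with Bowtie 2, the authors used STAR for alignment to mm10, SAMtools to drop PCR duplicates, and DESeq2 on a nonredundant gene set. The only signal used here is the deposited mean normalized count over the libraries, which is not scaled by gene length. The other 6 value columns of each of the 3 tables hold the authors' own log2 fold changes, standard errors, statistics and p-values, and were left out. Depth per library is unknown. Symbols came from RefSeq for 20450 of 20633 entries and from GENCODE M21 for 110. Levels per length used the longest GENCODE M21 transcript of the entry. Neither the spliced length nor the genomic span is known to be the one that the counting covered. Of the promoters before the start, a stretch was printed where at least 100 bases lay outside exons of protein-coding genes. Named genes are the members, the standard catalytic subunits, and the highest and lowest per kb of spliced transcript of each other list. Rfxap, Psme1, Vim, Pdgfrb and Thy1 are named in addition. So are Psma5, Psmb4, Irf2, Ifnar1, Esrrb and Sox2, the lowest and highest of their lists per kb of genomic span. The interferon and NF-kB motifs were shortened by 1 base after longer forms had been searched, and in both forms B2m alone of the group matched. Members and lists were chosen with earlier results of these data known. Scripts used Python 3.11.15 and pandas 2.3.3 and were checked on made-up data.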

Additional observations from a re-analysis of the deposited data

How the results depend on the processing

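The levels are the authors' means over all libraries, with no spread, so nothing here bears on differences between genotypes. The order of the genes per length changed for 2 of 8 (Tap2 and Psmb10) with the genomic span in place of the spliced transcript, and that setting moved each of the 8 levels per length by more than 1.5 times. The size of each move is fixed by the annotated lengths, since the same mean is divided by both. The number of genes with a mean normalized count at or above the threshold was 4 at 100, 8 at 10 and 0 at 1000. Summing all entries of a symbol could not change a level, since each of the 8 genes has 1 entry. The share of genes below moved by more than 1.5 times for 5 of 8 when only genes with a mean of at least 10 were ranked. That move is fixed by the rank of a gene and the share of genes left out, since the order stays the same. The share moved as much for 1 (Psmb10, 63.3% against 37.0%) when ranked per kb of genomic span and for 0 per kb of spliced transcript. No paired analysis was possible because the tables hold no values per library.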
